A study of Homo sapiens with 4 samples.

Results

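Enzymes of glycolysis and genes known as targets of the hypoxia-inducible factors were followed in AC16 cells over a short exposure to doxorubicin. The genes were chosen by name, with earlier results of these data known. The set holds 38 named genes of the 57891 genes with annotated transcripts in the deposited transcript values. It is made of 17 glycolytic enzymes, 19 other hypoxia targets (glucose and lactate transporters, regulators of the pathway, and genes of oxygen sensing, mitophagy and secretion) and the factors HIF1A and EPAS1 themselves. All 38 reached at least 1 CPM (a count scaled to the total counts of its library) in 1 or more libraries, as did 15989 genes in all.

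AC16 is an established human line made by fusing adult heart muscle cells with transformed fibroblasts, and its cells are labelled cardiomyocytes. Doxorubicin, an anthracycline drug of cancer therapy that inserts itself between DNA bases and blocks topoisomerase II, was given at 10 nM. The groups were untreated AC16 cells (0 min) and AC16 cells exposed for 10, 30 or 360 min, with 1 library of poly(A) RNA each. The serum-containing medium was taken off, the cells were rinsed, and the drug came in fresh serum-free medium, while for the 0 min cells a change of medium is not stated. Effects of the drug, of the change of medium and of the loss of serum therefore cannot be told apart. In bulk RNA, fewer cells of a type and less RNA per cell cannot be told apart either.

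Glycolysis splits glucose into pyruvate in a chain of cytosolic steps, and lactate dehydrogenase turns pyruvate into lactate when oxygen is short or growth is fast. Under low oxygen the prolyl hydroxylases EGLN1 and EGLN3 work less, HIF1A and EPAS1 proteins escape destruction, and with their partner ARNT they bind short DNA motifs beside genes of glucose uptake, glycolysis, mitophagy and blood vessel growth. These factors are controlled mainly at the level of the protein, which was not measured here, and no oxygen level is given in the labels.

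Each exposed library was set against the 0 min library by the ratio of CPM, with a 95% exact conditional binomial interval that covers counting error only. A gene is called higher or lower where the ratio was at least 2-fold, 1 of the 2 libraries held at least 5 CPM and the interval excluded 1. With 1 library per time no p-value was computed, each comparison is of libraries and not of conditions, and the 3 comparisons share the 0 min library. The libraries held 55156612 to 56875881 deposited counts, worth about 13789153 to 14218970 read pairs. The 10 min library stood somewhat apart from the others over all genes, with 14.5% of 11892 genes called in either direction, against 6.8% at 30 min and 6.59% at 360 min. Cardiomyocyte markers were mixed. Of 13 markers 7 were measured, namely the ventricular myosin light chain MYL2 (27.7 to 37.9 CPM over the 4 libraries), MYL7 (1.02 to 2.01), RYR2 (7.54 to 12.3), NPPB (37.1 to 122), NKX2-5 (10.4 to 24.1), GATA4 (1.31 to 3.20) and TBX5 (3.98 to 6.13). The sarcomere genes TNNT2, TNNI3, MYH6, MYH7 and ACTN2 and the peptide gene NPPA were below 1 CPM in every library. Summed cardiomyocyte markers stood at 103, 123, 205 and 135 CPM at 0, 10, 30 and 360 min. Fibroblast markers (5 of 9 measured, with DCN and LUM at 0 in every library) summed to 8934, 11355, 7723 and 7599.5 CPM, highest in the 10 min library, and their part in the results was not tested. Immune markers (2 of 5 measured, with CD14 at 0) summed to 29.8 to 57.6 CPM and endothelial markers (1 of 5, with KDR at 0) to 4.54 to 11.4 CPM, both highest at 10 min. Epithelial markers (2 of 5, KRT8 and KRT18) summed to 465 to 517 CPM.

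The promoters of 7 members are shown because they were searched for the core of the element bound by the hypoxia-inducible factors, and because they span members that were higher, lower or neither at 10 min. Each window runs from 250 bases before to 50 bases after the transcription start in RefSeq (GRCh38.p14), written 5' to 3' along the gene's strand, and 34 of the 38 members have such a window. Capitals mark the core, ACGTG or GCGTG on either strand, which reads CACGT or CACGC where the match lies on the opposite strand. ENO2, the neuronal form of enolase, lies on the plus strand (window chr12:6914330-6914629), and ALDOC, the brain form of aldolase, on the minus strand (chr17:28576846-28577145). PFKFB4, which makes the fructose bisphosphate that drives phosphofructokinase, is on the minus strand (chr3:48556754-48557053), and CA9, a membrane carbonic anhydrase, on the plus strand (chr9:35673678-35673977). EGLN3 (chr14:33951025-33951324) and EGLN1 (chr1:231422238-231422537) are minus-strand genes, as is ENO1, the common enolase (chr1:8878637-8878936).
ENO2: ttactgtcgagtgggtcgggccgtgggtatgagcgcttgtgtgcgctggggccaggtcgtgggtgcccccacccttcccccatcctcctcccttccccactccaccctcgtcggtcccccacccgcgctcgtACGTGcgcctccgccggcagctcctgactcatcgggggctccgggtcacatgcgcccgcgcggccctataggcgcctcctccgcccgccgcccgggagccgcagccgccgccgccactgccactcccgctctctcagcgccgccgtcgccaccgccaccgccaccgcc
ALDOC: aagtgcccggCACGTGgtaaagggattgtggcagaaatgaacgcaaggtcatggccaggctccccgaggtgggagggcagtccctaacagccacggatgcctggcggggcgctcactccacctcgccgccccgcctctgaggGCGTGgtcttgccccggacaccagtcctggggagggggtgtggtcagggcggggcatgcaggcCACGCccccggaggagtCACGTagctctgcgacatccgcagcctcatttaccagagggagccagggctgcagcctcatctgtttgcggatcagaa
PFKFB4: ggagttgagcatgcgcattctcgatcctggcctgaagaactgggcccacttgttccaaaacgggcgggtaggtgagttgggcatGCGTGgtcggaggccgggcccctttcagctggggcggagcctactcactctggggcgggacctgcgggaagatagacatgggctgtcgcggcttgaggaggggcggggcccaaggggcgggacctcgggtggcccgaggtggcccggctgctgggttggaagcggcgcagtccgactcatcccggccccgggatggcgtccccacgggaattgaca
CA9: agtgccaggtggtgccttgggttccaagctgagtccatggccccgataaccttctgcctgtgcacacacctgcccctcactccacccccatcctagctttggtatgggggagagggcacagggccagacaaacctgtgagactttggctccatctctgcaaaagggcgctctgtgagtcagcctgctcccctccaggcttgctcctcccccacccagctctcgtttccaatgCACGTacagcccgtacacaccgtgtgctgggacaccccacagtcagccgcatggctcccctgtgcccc
EGLN3: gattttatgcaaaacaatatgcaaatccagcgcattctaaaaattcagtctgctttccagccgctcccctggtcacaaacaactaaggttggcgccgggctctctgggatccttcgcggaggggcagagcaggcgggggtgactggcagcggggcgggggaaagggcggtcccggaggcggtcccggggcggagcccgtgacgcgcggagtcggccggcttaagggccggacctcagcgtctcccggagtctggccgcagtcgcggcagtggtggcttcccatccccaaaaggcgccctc
EGLN1: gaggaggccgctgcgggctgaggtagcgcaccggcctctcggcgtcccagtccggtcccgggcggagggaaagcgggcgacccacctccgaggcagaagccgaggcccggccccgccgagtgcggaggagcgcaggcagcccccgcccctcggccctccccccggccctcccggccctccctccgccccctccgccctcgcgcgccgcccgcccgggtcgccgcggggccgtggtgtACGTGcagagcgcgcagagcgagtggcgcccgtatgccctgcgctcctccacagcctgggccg
ENO1: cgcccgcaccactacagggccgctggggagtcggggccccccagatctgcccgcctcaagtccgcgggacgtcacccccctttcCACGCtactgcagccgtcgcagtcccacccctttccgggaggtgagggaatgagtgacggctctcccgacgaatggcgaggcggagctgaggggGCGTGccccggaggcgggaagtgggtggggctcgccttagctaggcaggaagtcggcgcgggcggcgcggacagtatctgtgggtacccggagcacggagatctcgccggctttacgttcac

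Counted from the transcription start, the first base of the match lies at -118 in ENO2, -166 in PFKFB4, -18 in CA9 and -13 in EGLN1. ALDOC has 5 matches, from -240 to -28, and 2 of them are the same palindrome, CACGTG, read on both strands. ENO1 has 2, at -166 and -72, and these letters are not in the EGLN3 window. A core match was found in 48.4% of all 35116 windows in RefSeq and in 67.7% of the 62 windows of the 34 matched members, with 62.2% for the enzymes and 77.3% for the other targets. ACGTG alone was in 21.4% of all windows and 38.7% of the members' windows. Of the 5 members with a window that were called higher at 10 min, 4 hold the core. A match is a description of letters and not a bound site. BNIP3L, NDRG1, SLC2A3 and VEGFA are named without a sequence.

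At 10 min the members moved apart from each other more than at the later times, and so did genes as a whole. Over all genes compared 14.5% were called in either direction at 10 min, against 6.8% at 30 min and 6.59% at 360 min. ENO2, ALDOC, SLC2A3, NDRG1, BNIP3L, EGLN3, CA9 and PFKFB4 were higher at 10 min than at 0 min, by 2.04-fold to 4.07-fold, and EGLN1 was lower. These 8 are 21.1% of the 38 members, while 7.69% of the 11892 genes compared were called higher. The members were chosen with earlier results of these data known, so these shares and the medians below describe the set and test nothing. The 1 member called lower stands beside 6.85% of genes called lower. Of the 17 enzymes 2 were higher and none lower, and of the 19 other targets 6 were higher and 1 lower. The median log2 ratio was 0.12 for the enzymes and 0.64 for the other targets, beside 0.02 for all genes measured. The ratio lay within 1.5-fold of 1 for 15 of the 17 enzymes and for 8 of the 19 other targets.

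**Figure D1:**
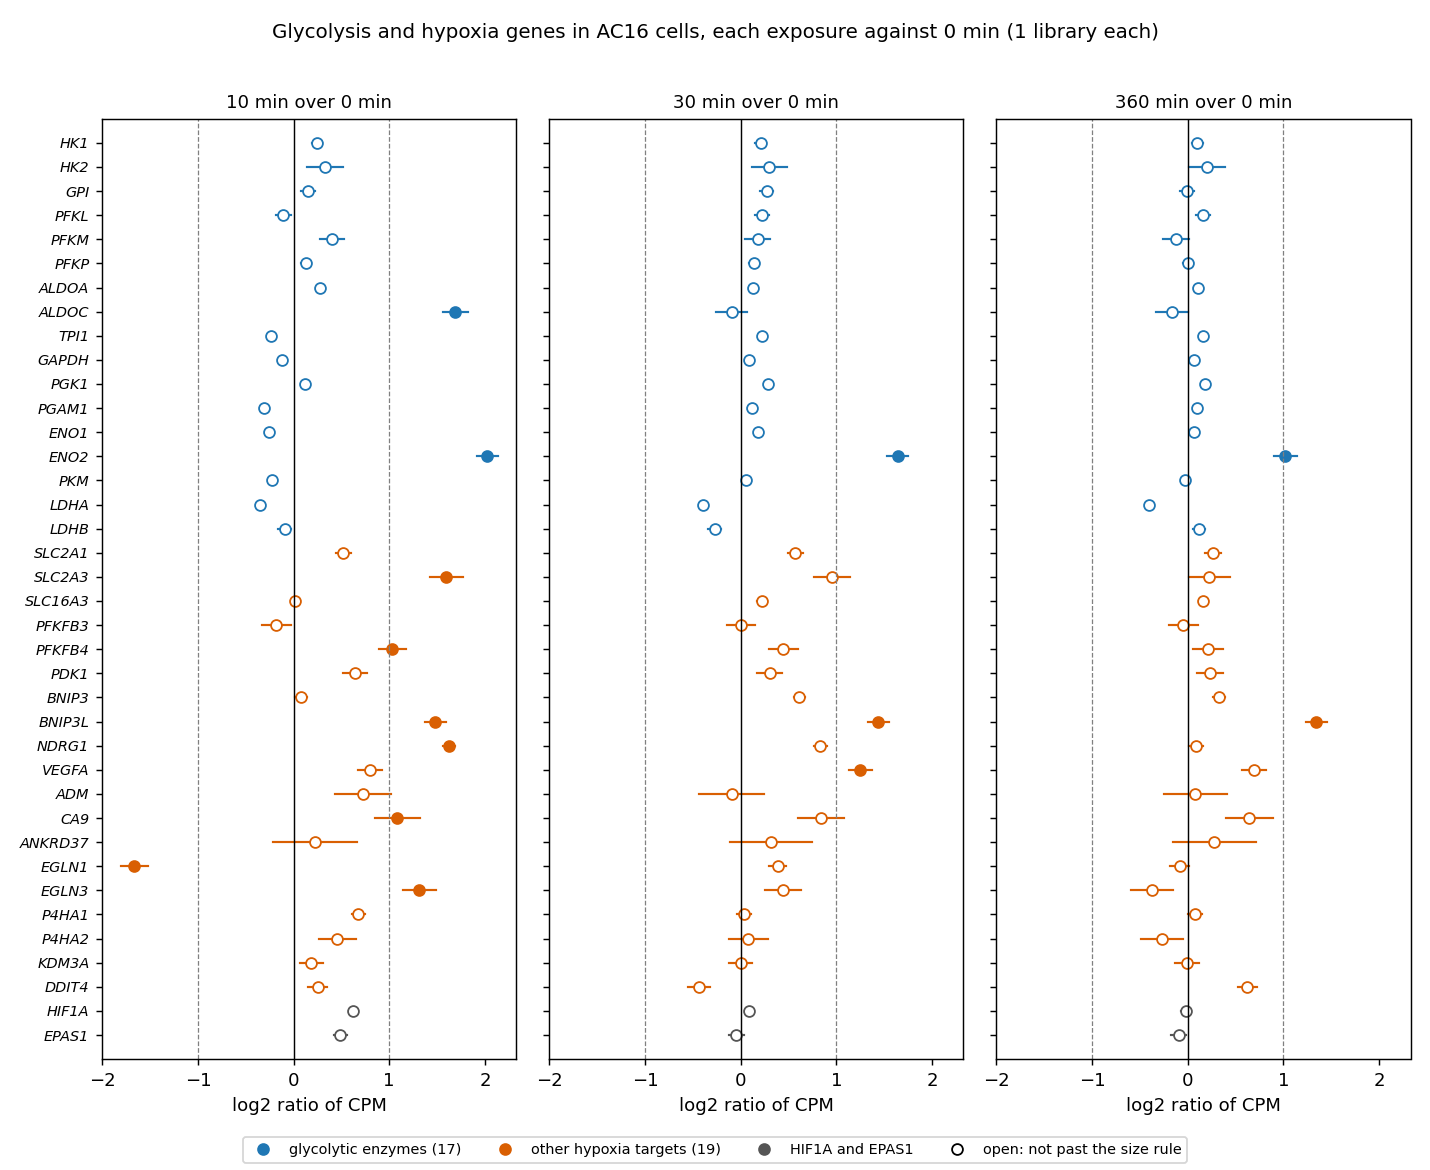
Each point is the log2 ratio of CPM of 1 library over the 0 min library for 1 of the 38 members (10, 30 or 360 min, with 95% counting intervals), with the members grouped into glycolytic enzymes, other hypoxia targets and factors. Most enzymes lie close to 0 at every time, while ENO2 reached 2.03, ALDOC 1.69 and EGLN1 -1.66 at 10 min.

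Most glycolytic enzymes had ratios near 1 at every time. HK1, the widely expressed hexokinase that traps glucose as glucose 6-phosphate, had 338, 401, 391 and 362 CPM at 0, 10, 30 and 360 min, and HK2, the inducible hexokinase of muscle and tumours, had 31.3, 39.4, 38.6 and 36.0 CPM. GPI, which isomerises that product to fructose 6-phosphate, had 226, 251, 274 and 225 CPM. None of these 3 passed the size rule at any time, and their largest ratio was 1.26 (1.11 to 1.43), for HK2 at 10 min. The phosphofructokinases catalyse the committed step. The liver form PFKL had 199.8, 185.5, 233 and 224 CPM, although its protein-coding transcripts alone gave a log2 ratio of -3.03 at 10 min, and the platelet form PFKP had 423, 463, 467 and 425 CPM. The muscle form PFKM had 63.8, 84.3, 72.1 and 58.6 CPM, with a ratio of 1.32 (1.21 to 1.44) at 10 min, short of the rule. No form of phosphofructokinase was called.

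Aldolase cleaves fructose 1,6-bisphosphate into the triose phosphates. ALDOC (ENSG00000109107, chr17:28573115-28577264) had 45.1 CPM at 0 min, 146 CPM at 10 min, 42.3 CPM at 30 min and 40.3 CPM at 360 min. The 10 min library alone was high, at 3.23-fold (2.96 to 3.54) the 0 min value, and the 3 others lay close together, with ratios of 0.937 (0.836 to 1.05) at 30 min and 0.893 (0.796 to 1.00) at 360 min. Of the exon bases of ALDOC 10.1% are shared with a gene on the other strand, and whether counting used strand is not given in the sources used here. ALDOA, the muscle and housekeeping aldolase, had 743, 897, 811 and 800.0 CPM, with a ratio of 1.21 (1.18 to 1.24) at 10 min and no call. Neighbouring genes overlap 42.3% of the exon bases of ALDOA on the same strand, which makes its value less certain.

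The triose steps follow. TPI1, which interconverts the triose phosphates, had 774, 659, 905 and 865 CPM, and GAPDH, which oxidises glyceraldehyde 3-phosphate, had 3122, 2862, 3312 and 3272 CPM. GAPDH-208, annotated as a retained intron, held 42.6% to 49.2% of the GAPDH counts. Protein-coding transcripts of GAPDH alone gave a log2 ratio of -0.29 at 10 min, against -0.13 for the total. PGK1, the first step that yields ATP, had 1719, 1875, 2101 and 1955 CPM, and PGAM1, which moves the phosphate of its product, had 934, 752, 1013 and 1002 CPM. TPI1, GAPDH and PGAM1 each had their lowest value in the 10 min library, and none of these 4 genes passed the rule, with ratios from 0.805 (0.785 to 0.826, PGAM1 at 10 min) to 1.22 (1.2 to 1.24, PGK1 at 30 min). Enolase makes phosphoenolpyruvate. ENO2 (ENSG00000111674, chr12:6913745-6923698) had 63.0 CPM at 0 min, 257 CPM at 10 min, 197 CPM at 30 min and 128 CPM at 360 min. It was higher than at 0 min in every exposed library, at 4.07-fold (3.78 to 4.38), 3.12-fold (2.90 to 3.37) and 2.03-fold (1.87 to 2.20) at 10, 30 and 360 min, and its exons overlap no other gene. ENO1 had 4440.3 CPM at 0 min, 3708 CPM at 10 min, 5026 CPM at 30 min and 4643 CPM at 360 min, so the 10 min library was its lowest, at a ratio of 0.835 (0.825 to 0.845) and short of the rule.

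PKM, the pyruvate kinase of most tissues, had 2091, 1790.0, 2177 and 2058 CPM at 0, 10, 30 and 360 min, with ratios between 0.856 and 1.04. PKM-219, a transcript annotated for nonsense-mediated decay, held 52.2% to 69.6% of the PKM counts. With protein-coding transcripts alone the 10 min log2 ratio of PKM was 0.07, against -0.22 for the total, so its direction is not settled. LDHA, the lactate dehydrogenase subunit that favours lactate and a well-known hypoxia target, had 1613 CPM at 0 min and 1262, 1232 and 1222 CPM at 10, 30 and 360 min. It was the 1 member whose highest library was 0 min, with ratios of 0.783 (0.767 to 0.798), 0.764 (0.749 to 0.779) and 0.757 (0.742 to 0.773), none of them past the rule. A transcript annotated as a retained intron holds much of the LDHA total, and with protein-coding transcripts alone the log2 ratios of LDHA were -0.33, 0.92 and 0.92 at 10, 30 and 360 min, so the direction at the later times is not settled. LDHB, the subunit that favours pyruvate, had 285, 267, 236 and 310 CPM and made no call. Its value is less certain, since 33.4% of its exon bases are shared with a gene on the same strand. Unannotated models of its locus held a further 86.3, 0, 84.1 and 0.0181 CPM at 0, 10, 30 and 360 min. The whole LDHB locus had ratios of 0.720, 0.862 and 0.835 at 10, 30 and 360 min. For annotated transcripts the 360 min ratio was 1.09, so the direction at that time is not settled. Several enzymes have processed pseudogenes that could share their reads, and those of LDHA held 1.04% to 1.60% of the CPM of their parent gene, those of TPI1 0.534% to 0.691% and those of ENO1 0.140% to 0.184%.

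Glucose enters cells through the SLC2A transporters. SLC2A3 (GLUT3, ENSG00000059804, chr12:7919230-7936275), the high-affinity carrier known from neurons, had 24.8 CPM at 0 min, 75.2 CPM at 10 min, 48.2 CPM at 30 min and 29.1 CPM at 360 min. It was higher at 10 min, at 3.03-fold (2.68 to 3.43), and the ratio was 1.94 (1.71 to 2.22) at 30 min and 1.17 (1.01 to 1.35) at 360 min. With protein-coding transcripts alone the 10 min log2 ratio was 0.97 and the call was lost. SLC2A1 (GLUT1), the basal carrier, had 152, 217, 225 and 183 CPM, with ratios of 1.43 (1.36 to 1.52) at 10 min and 1.49 (1.41 to 1.57) at 30 min. SLC16A3 (MCT4), which exports lactate, had 468, 474, 546 and 524 CPM, and neither SLC2A1 nor SLC16A3 passed the rule.

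The PFKFB enzymes set the level of fructose 2,6-bisphosphate, the activator of phosphofructokinase. PFKFB4 (ENSG00000114268, chr3:48517684-48562015) had 44.1, 90.1, 60.1 and 51.2 CPM at 0, 10, 30 and 360 min. Its ratio at 10 min was 2.04 (1.85 to 2.25), just past the rule, and the call was lost under median-of-ratios scaling. PFKFB3, its better known relative, had 52.9, 46.7, 53.1 and 51.2 CPM and stayed within the rule at every time. PDK1, a kinase that shuts off pyruvate dehydrogenase and so keeps pyruvate out of mitochondria, had 60.3, 94.1, 74.5 and 70.9 CPM, with a ratio of 1.56 (1.43 to 1.70) at 10 min and no call.

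BNIP3 and BNIP3L are outer mitochondrial membrane receptors that mark mitochondria for autophagy. BNIP3L (ENSG00000104765, chr8:26382898-26505636) had 64.0 CPM at 0 min, 179 CPM at 10 min, 174 CPM at 30 min and 163 CPM at 360 min. All 3 exposed libraries were higher than the 0 min library, at 2.79-fold (2.59 to 3.01), 2.71-fold (2.51 to 2.93) and 2.54-fold (2.35 to 2.75), and they differed little among themselves. BNIP3 had 290.5, 306, 444 and 365 CPM, highest at 30 min with a ratio of 1.53 (1.47 to 1.59) and no call. NDRG1 (ENSG00000104419, chr8:133237171-133302022), a stress gene induced by hypoxia, iron loss and differentiation, had 199, 614, 354 and 211 CPM. The 10 min library was the highest at 3.08-fold (2.96 to 3.22), the 30 min library lay between at 1.78 (1.70 to 1.86), and the 360 min library was near the 0 min library at 1.06 (1.01 to 1.12).

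Among the secreted and cell-surface products, VEGFA (ENSG00000112715, chr6:43770184-43786487), the growth factor of blood vessels, had 58.0, 101, 138 and 93.7 CPM. It was the 1 target whose call came at 30 min alone, at 2.38-fold (2.19 to 2.59), with ratios of 1.73 (1.59 to 1.89) at 10 min and 1.62 (1.48 to 1.77) at 360 min. Its protein-coding transcripts alone gave log2 ratios of -0.06 at 10 min and 1.88 at 30 min. CA9 (ENSG00000107159, chr9:35673856-35681159) had 15.8, 33.5, 28.4 and 24.8 CPM and was higher at 10 min, at 2.12-fold (1.80 to 2.49). Of its exon bases 38.5% are shared with ARHGEF39 on the other strand, so its value is uncertain. ADM, the vessel-relaxing peptide adrenomedullin, had 10.9, 18.1, 10.3 and 11.6 CPM, with a ratio of 1.65 (1.35 to 2.03) at 10 min and no call. ANKRD37, an ankyrin-repeat target of the factors, stayed at 5.96 to 7.42 CPM, and 35.2% of its exon bases are shared with UFSP2.

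The oxygen-sensing hydroxylases went apart at 10 min. EGLN3 (PHD3, ENSG00000129521, chr14:33924231-34462774) had 28.4, 70.6, 38.6 and 21.9 CPM at 0, 10, 30 and 360 min and was higher at 10 min, at 2.49-fold (2.21 to 2.80). EGLN1 (PHD2, ENSG00000135766, chr1:231363751-231425044), the main sensor in most cells, had 125, 39.3, 163 and 118 CPM and was lower at 10 min, at 3.17-fold below the 0 min library, a ratio of 0.316 (0.286 to 0.348). Over the whole assembly locus of EGLN1, which adds unannotated models, the values were 146, 75.2, 163 and 150.0 CPM, and the 10 min ratio of 0.514 was short of the rule. The 2 hydroxylases that modify collagen rather than the factors, P4HA1 and P4HA2, had 209, 334, 214 and 220.1 CPM and 27.3, 37.5, 28.9 and 22.7 CPM, both highest at 10 min and neither called. For P4HA2 most reads of the locus lie in unannotated models, and the whole locus had 149, 226, 174 and 151 CPM. KDM3A, a histone demethylase, had 77.2, 87.9, 77.3 and 76.8 CPM.

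DDIT4 (REDD1), an inhibitor of mTORC1, had 100.4, 119, 74.2 and 155 CPM at 0, 10, 30 and 360 min. Its ratios were 0.740 (0.682 to 0.802) at 30 min and 1.54 (1.44 to 1.65) at 360 min, short of the rule against 0 min, and 41.2% of its exon bases are shared with DDIT4-AS1. The factors followed a common shape with the 10 min library on top. HIF1A had 562, 866, 597 and 553 CPM, a ratio of 1.54 (1.5 to 1.59) at 10 min. Of its 10 min value 255 CPM were assigned to HIF1A-212, a transcript listed at 0 in the other 3 libraries, and its other annotated transcripts had 611 CPM at 10 min against 562 CPM at 0 min, a ratio of 1.09 at 10 min. EPAS1 (HIF-2alpha) had 204, 286, 198 and 191 CPM, a ratio of 1.40 (1.34 to 1.47). Neither passed the rule at any time, and at 30 and 360 min both had ratios between 0.937 and 1.06.

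**Figure D2:**
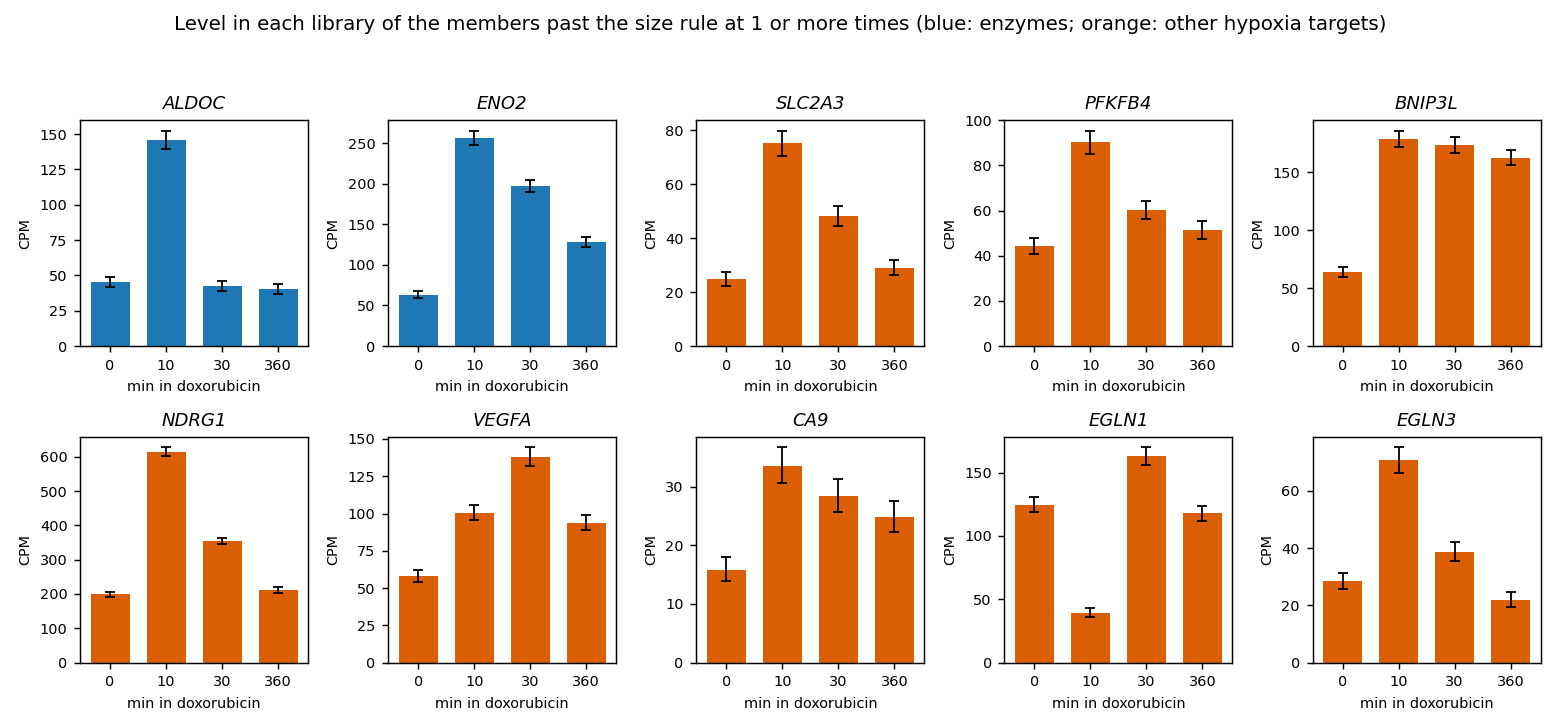
CPM in each of the 4 libraries (0, 10, 30 and 360 min, 1 library each) for the members called against 0 min at 1 or more times, as bars from 0 with 95% counting intervals and an own scale for each gene. ALDOC is high in the 10 min library alone (146 CPM), BNIP3L is high in all 3 exposed libraries (163 to 179 CPM), and EGLN1 is low in the 10 min library alone (39.3 CPM).

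At 30 min ENO2, BNIP3L and VEGFA were higher than at 0 min and no member was lower. These 3 are 7.89% of the members, beside 3.55% of 11533 genes called higher and 3.25% called lower. The median log2 ratio was 0.18 for the enzymes, with 14 of 17 above a ratio of 1, and 0.39 for the other targets, with 17 of 19 above 1, beside -0.01 for all genes measured. At 360 min ENO2 and BNIP3L were higher and no member was lower, which is 5.26% of the members beside 3.26% of 11511 genes called higher and 3.34% called lower. The medians were then 0.10 for the enzymes and 0.21 for the other targets, beside -0.000342 for all genes measured. ENO2 and BNIP3L were thus called higher at all 3 times, as were 90 of 11285 genes (0.798%), no member was lower at all 3 times, as were 0.576% of genes, and all of these calls rest on the same 0 min library. With the median of the 3 other libraries as the baseline, 5 members were higher at 10 min and none at 30 or 360 min, and the log2 ratios at 360 min became -0.62 for ENO2 and -0.09 for BNIP3L.

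The later libraries were also set against the 10 min library. These comparisons reuse the library on which the members were called at 10 min, so their values describe the course and add no support to those calls. At 360 min ALDOC, EGLN3, NDRG1, SLC2A3 and ENO2 were lower than at 10 min, beside 9.13% of 11921 genes, and EGLN1 was higher, beside 7.99%. The ratios of 360 over 10 min were 0.276 (0.251 to 0.304) for ALDOC, 0.311 (0.272 to 0.354) for EGLN3 and 0.344 (0.330 to 0.359) for NDRG1. They were 0.387 (0.344 to 0.434) for SLC2A3, 0.499 (0.471 to 0.528) for ENO2 and 2.99 (2.72 to 3.31) for EGLN1. The lower ALDOC and the higher EGLN1 were already past the rule at 30 min, beside 7.54% of 11902 genes lower and 6.86% higher. Their ratios of 30 over 10 min were 0.290 (0.264 to 0.318) and 4.15 (3.77 to 4.56). Over its whole assembly locus EGLN1 had 75.2, 163 and 150.0 CPM at 10, 30 and 360 min. Both EGLN1 ratios to 10 min were smaller there, and the call at 360 min was lost. Between 30 and 360 min DDIT4 alone passed, at 2.08-fold (1.93 to 2.24) in the 360 min library, beside 3.26% of 11502 genes called higher and 3.49% called lower.

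Members also differed in which library was their highest. Over the whole set the highest value lay in the 0 min library for 1 member, the 10 min library for 19, the 30 min library for 16 and the 360 min library for 2. Among the enzymes the 10 min library was the highest for 6 and the lowest for 6, so the step from 0 to 10 min had no common direction within the pathway. Among the other targets the 0 min library was the lowest for 12 of 19. Summed CPM of the enzymes was 17111 at 0 min, 15898 at 10 min, 18528 at 30 min and 17627 at 360 min, while the other targets summed to 2012, 2944, 2759 and 2399 CPM. The enzyme sum was thus smallest, and the sum of the other targets greatest, in the 10 min library. The enzyme sum is weighted to its most abundant genes, and ENO1 alone went from 4440 CPM at 0 min to 3708 CPM at 10 min. Of the 17 enzymes 9 had a ratio above 1 at 10 min, so the smaller sum is not a fall shared by the enzymes.

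The median level per length was higher for the enzymes than for the other targets, but the ranges overlapped. In CPM per kilobase of transcript, the enzymes had a median level of 222 at 0 min, 204 at 10 min, 187 at 30 min and 209 at 360 min, and the other targets 18.1, 26.95, 19.04 and 16.96. At 0 min the enzymes ran from 5.48 to 2001 and the other targets from 6.25 to 233, the highest of these being SLC16A3. ENO1 and GAPDH were the most abundant members at 0 min, at 1926 and 2001 CPM per kilobase, with their retained-intron transcripts counted in. The enzymes that were called sat near the low end of the enzyme range, with 34.6 CPM per kilobase at 0 min for ENO2 and 26.2 for ALDOC. HK2 at 5.48 and PFKM at 24.2 were lower still and were not called.

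**Figure D3:**
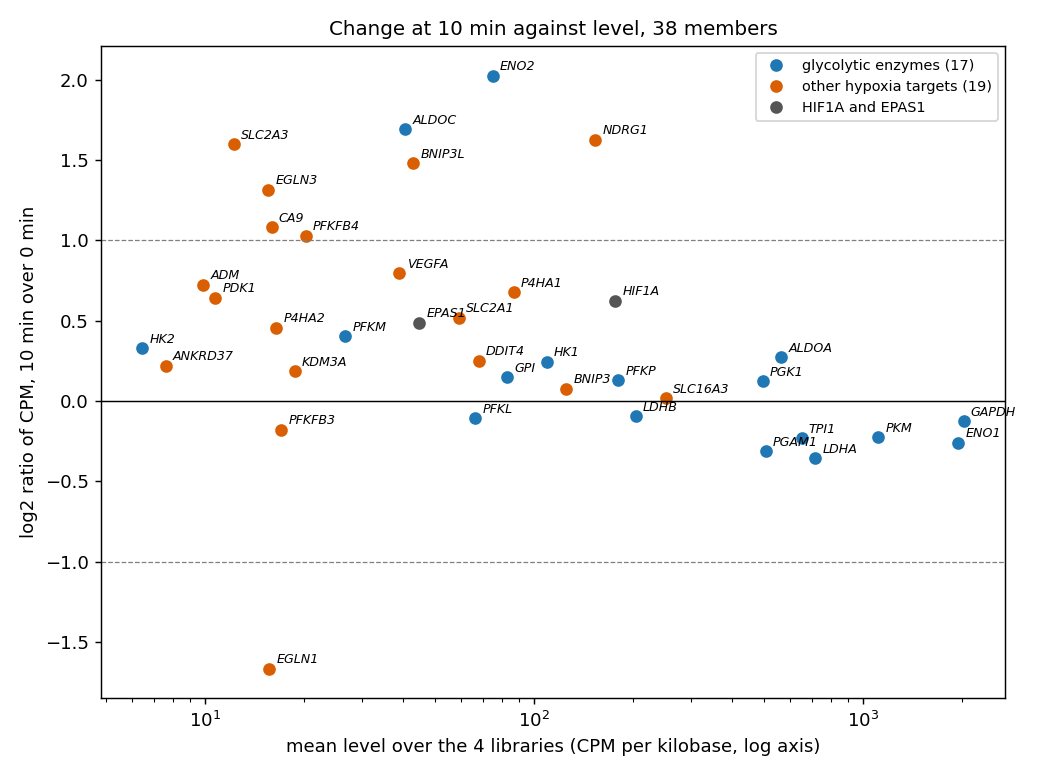
Mean level over the 4 libraries in CPM per kilobase (log axis) against the log2 ratio of the 10 min over the 0 min library, 1 point per member, coloured by group, with dashed lines at a 2-fold ratio. The abundant enzymes at the right, such as GAPDH and ENO1, lie in a narrow band around 0, and all 9 members beyond the dashed lines, ENO2 (2.03) and EGLN1 (-1.66) among them, lie left of the most abundant enzymes.

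Where a step has more than 1 form, the form with the smaller share at 0 min was in several families the one called higher at 10 min. Per length, ENO2 made up 6.30% of ENO1 and ENO2 together at 10 min, 4.16% at 30 min and 2.89% at 360 min, against 1.76% at 0 min. ALDOC made up 12.1% of both aldolases at 10 min, against 4.86% at 0 min, and was at 4.22% and 4.31% at 30 and 360 min. So even at their highest these forms were a small part of the enolase and aldolase RNA. HK2 kept to 5.17% to 5.73% of HK1 and HK2 together and LDHB to 20.4% to 23.8% of both lactate dehydrogenase genes in the 4 libraries. The LDHB share leaves out the unannotated models of its locus, which differed between libraries.

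Shares shifted further outside the core pathway. SLC2A3 made up 23.95% of SLC2A1 and SLC2A3 at 10 min against 13.1% at 0 min, and PFKFB4 made up 71.9% of PFKFB3 and PFKFB4 at 10 min against 41.5% at 0 min. BNIP3L made up 33.2% of BNIP3 and BNIP3L at 10 min, 23.7% at 30 min and 26.9% at 360 min, against 16.7% at 0 min. EGLN3 was the larger part of EGLN1 and EGLN3 in the 10 min library alone, at 83.0% against 39.5% at 0 min, with 39.0% at 30 min and 35.5% at 360 min. The EGLN1 value leaves out unannotated models of its locus, which held 21.6, 35.9, 0 and 32.3 CPM at 0, 10, 30 and 360 min. With them the EGLN1 ratio at 10 min was 0.514, short of the rule, so this shift is less certain. The 3 phosphofructokinases kept their order in every library, with PFKP the largest at 64.2% to 71.3%. These shares rest on 1 library each and carry no interval.

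**Figure D4:**
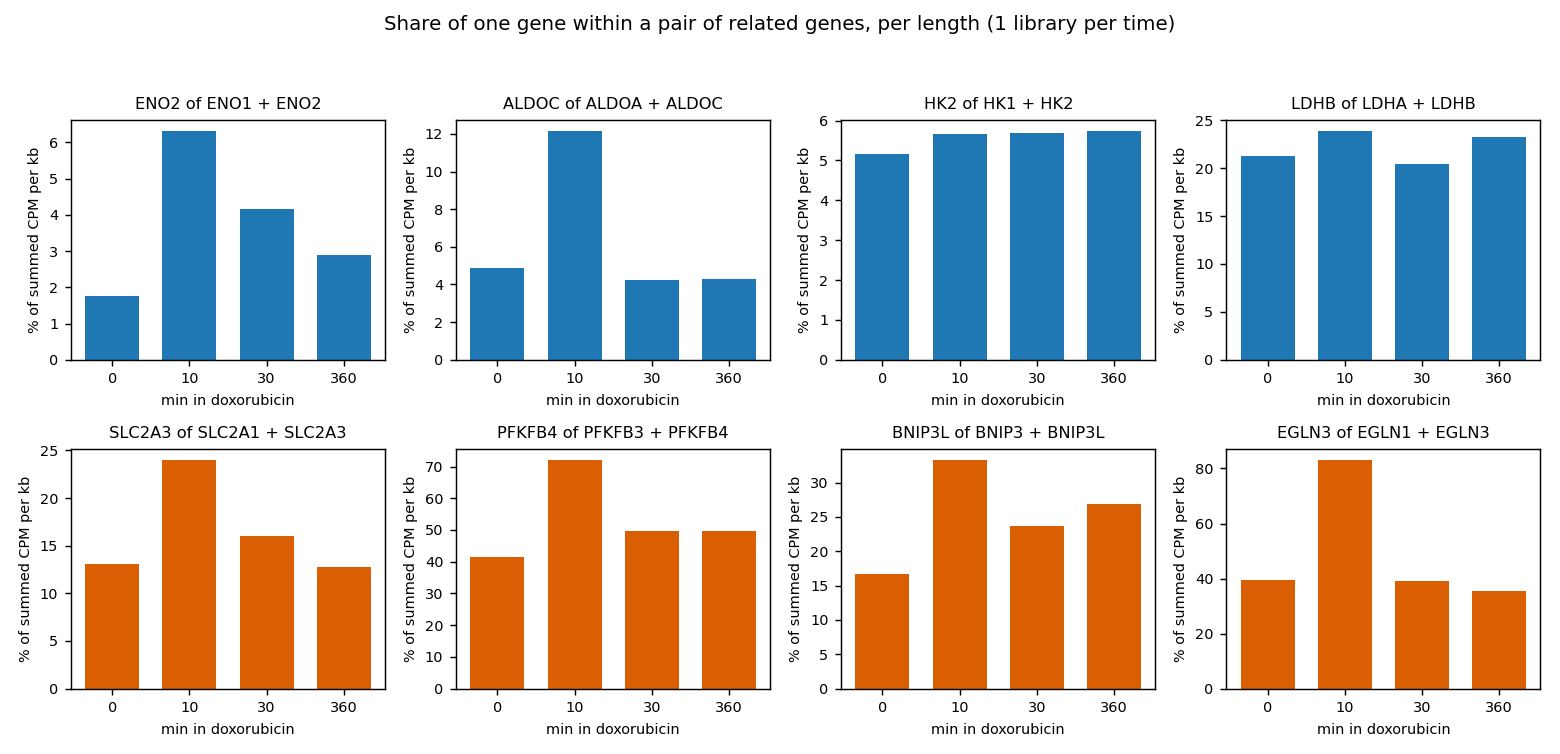
Share of 1 gene within a pair of related genes, in percent of their summed CPM per kilobase, in the 4 libraries (0, 10, 30 and 360 min, 1 library each). EGLN3 stands out at 83.0% at 10 min against 39.5% at 0 min, while HK2 stays between 5.17% and 5.73%. The EGLN1 values leave out unannotated models of its locus, which held 35.9 CPM at 10 min against 21.6 CPM at 0 min. The shares also depend on the estimated split of reads among transcripts of different length.

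The transcripts behind a gene's total changed more than the total in several members, and the deposited values split each gene's reads among transcripts by an estimate. The most counted annotated transcript differed from the 0 min library for 7 members at 10 min, 7 at 30 min and 6 at 360 min. For ENO2 the transcript ENO2-211 had 13.5, 184, 45.4 and 7.42 CPM at 0, 10, 30 and 360 min, and ENO2-214 had 0.0176, 0.648, 90.4 and 59.2 CPM. The gene was thus high at 10 min through one transcript and at 30 and 360 min largely through another. NDRG1-217 had 46.4, 290.2, 75.6 and 49.5 CPM, a course like that of its gene. It is annotated as a processed transcript and not as coding, and held 21.3% to 47.3% of the NDRG1 counts. NDRG1-216, annotated as a retained intron, held 29.8% to 57.5%. Protein-coding transcripts of NDRG1 alone gave a log2 ratio of 2.16 at 10 min, against 1.63 for the total. BNIP3L was simpler, since BNIP3L-201 held 95.3% to 99.2% of its counts in every library.

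Totals that hardly moved could hide larger exchanges between transcripts. PFKL-201 had 138, 16.9, 171 and 157 CPM, while PFKL-205, annotated as a retained intron, had 10.5, 112, 26.8 and 25.5 CPM. In the 10 min library the estimate thus placed most PFKL reads on a transcript that is not annotated as coding. LDHA-202, also a retained intron, had 1105, 867, 271 and 285 CPM, and LDHB-203 had 0.123, 23.3, 60.8 and 274 CPM where LDHB-201 had 282, 242, 165 and 33.0 CPM. Such exchanges come from 1 library each, and whether they lie in the cells or in the estimate was not tested.

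Other genes of the same pathways were counted from lists chosen by role, with earlier results of these data known. Of 34 further hypoxia targets and pathway members 32 were measured, and 5 were higher and 1 lower at 10 min than at 0 min, beside 7.69% of all genes higher and 6.85% lower, with a median log2 ratio of 0.40. PPFIA4, a liprin of the cell cortex, had 27.4 CPM at 10 min against 2.53 CPM at 0 min, a 10.8-fold difference (7.67 to 15.7). It was also called at 30 min, with 18.2 CPM, and at 360 min, with 10.4 CPM. Over the whole assembly locus its 10 min ratio was 3.60 and its 360 min ratio of 1.58 was short of the rule, as was that of its protein-coding transcripts at 360 min (log2 ratio 0.84). HILPDA, a lipid droplet protein, had 39.5 CPM at 10 min against 15.6 CPM at 0 min, at 2.53-fold (2.16 to 2.97).

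MXI1, an antagonist of MYC, had 42.4 CPM at 10 min against 16.9 CPM at 0 min, but its protein-coding transcripts alone gave a log2 ratio of 0.32 and no call. WSB1, a ubiquitin ligase adaptor, had 147 CPM at 10 min against 68.1 CPM at 0 min. LOX, which crosslinks collagen, had 211 CPM at 10 min against 72.3 CPM at 0 min, but its whole locus gave a ratio of 1.71, short of the rule. ARNT, the partner of both factors, was called lower at 10 min, with 14.4 CPM against 31.3 CPM at 0 min, while its whole locus had 41.1 CPM against 31.8 CPM, so its direction depends on unannotated models. At 30 min PPFIA4 was higher and FUT11, a fucosyltransferase, was lower, with 3.60 CPM against 7.24 CPM at 0 min, while its whole locus had 34.0 CPM against 27.7 CPM, the other direction. At 360 min PPFIA4 was higher and MXI1 was lower, with 7.60 CPM against 16.9 CPM at 0 min. The 1 higher and 1 lower of 32 at each later time stand beside 3.55% and 3.25% of all genes at 30 min and 3.26% and 3.34% at 360 min. The list medians were 0.20 at 30 min and 0.15 at 360 min.

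Of 30 further genes of glucose metabolism (pentose phosphate, pyruvate, glycogen and hexose genes) 28 were measured, with median log2 ratios of 0.04, 0.12 and 0.03 at 10, 30 and 360 min. DLAT, a subunit of pyruvate dehydrogenase, was the 1 gene called, higher at each time with 46.1, 71.3 and 75.8 CPM at 10, 30 and 360 min against 12.5 CPM at 0 min. That is 3.57% of the list at each time, beside 7.69%, 3.55% and 3.26% of all genes called higher at 10, 30 and 360 min. Its whole assembly locus had 51.5, 71.3 and 75.8 CPM against 60.0 CPM at 0 min and made no call, and at 10 min the direction was the opposite.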

How the data were processed

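The authors deposited estimated counts per transcript and per assembly locus for 4 libraries of poly(A) RNA, neither scaled nor divided by length. The submitters' processing notes name HISAT2, DESeq2 and GRCh38 without versions. How reads were counted, with which annotation and whether by strand, is not given in the sources used for this work. The values are whole numbers over 230349 transcripts and 66839 loci. In loci with a single model 36.3% of 9714 low values were multiples of 4, where even spacing gives 25%, so each read pair was treated as about 4 of the deposited counts, and intervals were computed on counts divided by 4. Values piled up at 2 as well (767 values, against 771 at 4), so a read pair may be worth 2 counts, with more read pairs and narrower intervals than given. Undivided counts, with narrower intervals still, changed no member's call against 0 min. Without molecular identifiers the intervals cover counting error only.

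Annotated transcripts were summed per gene (GENCODE 29) and scaled to CPM by the column total of each library. Unannotated models, which hold 10.7% to 11.7% of counts, entered the totals and the locus values only. Ratios carry a 95% exact conditional binomial (Clopper-Pearson) interval. A gene passed at a ratio of 2-fold or more, if either library held 5 CPM and 1 lay outside the interval. A library at 0 entered at a floor of 3 read pairs (12 counts). Levels between genes are per kilobase of annotated transcript. With 1 library per group no test of edgeR or DESeq2 was run, and edgeR 4.0.16 in R 4.3.3 served for TMM factors. Python 3.11.15, numpy 2.4.6, pandas 2.3.3, SciPy 1.17.1 and matplotlib 3.10.9 did the rest, and the size rule was tested on simulated data.

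The members and lists were chosen with earlier results of these data known. Every member is named, those past the rule with every library's value, and of the further lists the genes past the rule are named. Promoter windows are from RefSeq (GRCh38.p14). No per-sample column was left without a sample. Alternatives were other scaling, the assembly locus, coding transcripts, other low-value limits, a 1.5-fold threshold, undivided counts, another baseline and another grouping of 6 genes.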

Additional observations from a re-analysis of the deposited data

Results flagged for a closer look

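Reads in unannotated models, which the comparisons above leave out of each gene's value, were above the 0 min level for a few loci by the same size rule. At the GPI locus these models held 70.7 CPM at 360 min against 14.6 CPM at 0 min. At the NDRG1 locus they held 33.7 CPM at 10 min and 21.7 CPM at 30 min, against 9.18 CPM at 0 min. At the ARNT locus they held 26.7 CPM at 10 min against 0.492 CPM at 0 min, and at the PPFIA4 locus 40.7 CPM at 10 min against 16.4 CPM at 0 min. Other loci went the opposite way by the same rule. Unannotated models held 0 CPM at 10 min and 0.0181 CPM at 360 min against 86.3 CPM at 0 min for LDHB, and 8.76, 9.82 and 6.98 CPM at 10, 30 and 360 min against 56.3 CPM at 0 min for LOX. They held 5.34 CPM at 10 min and 0 CPM at 30 and 360 min against 47.5 CPM at 0 min for DLAT, 0 CPM at 30 min against 21.6 CPM at 0 min for EGLN1, and 6.26 CPM at 10 min against 14.6 CPM at 0 min for GPI. Each value is of 1 library, and what these models are was not tested.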

How the results depend on the processing

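The count of members higher than at 0 min was 13, 7 and 5 at 10, 30 and 360 min with a 1.5-fold threshold, which 16.5%, 8.26% and 6.72% of all genes passed, and 5, 0 and 0 with the median of the 3 other libraries as the baseline. That baseline gave median log2 ratios of 0.035 at 10 min and -0.023 at 360 min for the enzymes and of 0.25, 0.19 and -0.082 at 10, 30 and 360 min for the other targets. It turned ENO2 (-0.62), BNIP3L (-0.093) and PPFIA4 (-0.81) round at 360 min and DLAT (-0.63) at 10 min, as its construction sets a library against other exposed ones. The assembly locus left 0 members lower at 10 min and turned ARNT (0.37) and DLAT (-0.22) round at 10 min and FUT11 (0.29) at 30 min. Protein-coding transcripts alone gave 2 members lower at 10 min and an enzyme median of 0.29 at 30 min, where moving 6 transporters and regulators to the enzymes gave 0.21. The cause of these shifts was not tested.

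Alternatives for comparisons among exposed libraries were chosen after seeing the data. Protein-coding transcripts gave 4 members higher and 2 lower for 30 against 10 min, 1 lower for 360 against 30 min, and 3 higher and 3 lower for 360 against 10 min. The 1.5-fold threshold gave 7, 4 and 10 members lower for 30 against 10, 360 against 30 and 360 against 10 min, beside 16.5%, 7.95% and 18.7% of all genes, and the assembly locus gave 0 higher for 360 against 10 min. TMM factors left all 138 log2 ratios of named genes within their counting intervals, and median-of-ratios scaling moved 5 of them.

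No paired analysis was possible because each time has 1 library and the labels give no replicate numbers, and for the same reason no library could be left out of a group. Differences between cultures cannot be seen at any depth here. A gene at 0 counts could hold up to 0.218 CPM in the shallowest library.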
